A study of Mus musculus with 16 samples.

Results

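HSP90 is an ATP-driven chaperone that acts late in folding, binding client proteins such as protein kinases and steroid hormone receptors after HSP70 has handled them. Its clients are delivered, held and released with the help of co-chaperones, which load a client, slow or speed the ATPase cycle, or bring in another enzyme. In the retina the same machinery is known for its part in making the rod phosphodiesterase, through the photoreceptor co-chaperone Aipl1. The genes described here are the 4 HSP90 genes and 6 of their co-chaperones, chosen by symbol from the authors' table of all genes. All 10 were found among the 25905 genes listed. The HSP90 genes are Hsp90aa1 and Hsp90ab1 of the cytosol, Hsp90b1 of the endoplasmic reticulum (ER) and Trap1 of the mitochondrion. The co-chaperones are Chordc1, Cdc37, Ahsa1, Stip1, Fkbp4 and Ptges3.

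The 16 libraries came from the right retina of 8 spaceflight mice and 8 mice kept as ground control, wild type C57BL/6 males labelled as 10 weeks old. In the study's methods, 10 weeks is the age of the mice sent into orbit, and the age at collection is not given. The spaceflight group lived in orbit, aboard the International Space Station, for 35 days, and eyes were collected about 38 hours after splashdown. Ground control mice were kept on Earth in the same housing hardware with the same diet. Each library was made from 100 ng of total RNA.

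The deposited counts of the 16 libraries are in columns named with laboratory codes that match no label of a mouse or a group, so these columns were not used. The authors' own comparison of spaceflight and ground control was not used either. Levels in each group, their spread between mice and a test of spaceflight against ground control are therefore not analysed here. Every level below is the authors' mean normalized count, which is the read count divided by a size factor for the library and averaged over all 16 libraries of both groups. No SD or interval accompanies these means, because the depth and the values of single libraries were not used. In whole retina, fewer cells of a type and less RNA per cell cannot be told apart.

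The table held genes of rods and cones at high levels, but not every listed marker of retinal cells was high. Among markers counted from several transcripts, Rlbp1 of Müller glia stood at 1.39 and Rbpms of ganglion cells at 5.53. The rod factor Nrl stood at 88.9, and Trpm1 of bipolar cells was high at 2866. The rod gene Gnat1, for the transducin subunit, had a mean normalized count of 154477, and the 5 cone genes ran from 537 for Pde6h to 2800 for Opn1sw. The 3 microglial markers ran from 36.9 to 87.6. Of the genes listed for neighbouring tissue, those of the lens ran from 49.1 for Mip to 898 for Cryaa. Those of the pigment epithelium were Ttr at 540, Rpe65 at 121 and Best1 at 2.72. The part of these tissues in the levels below was not tested.

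By mean normalized count, not divided by transcript length, the HSP90 genes other than Trap1 were among the highest in the table. Hsp90aa1, the stress-inducible cytosolic form, had a mean normalized count of 19758, which is at or above 99.8% of the 12374 genes with a mean normalized count of at least 10. Hsp90b1, which folds receptors and integrins in the ER, stood at 5382 (percentile 99.1). Hsp90ab1, the constitutive cytosolic form, stood at 5194, also at percentile 99.1. The mitochondrial Trap1 was far lower, at 430 and percentile 72.4. Together the 10 genes held 0.523% of all mean normalized counts, and 0.282% belonged to Hsp90aa1 alone. Percentiles and shares use counts not divided by transcript length, so genes with long transcripts can stand higher. They are also relative to a table in which genes counted from several transcripts often have low levels, as described below.

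Among the co-chaperones, the scaffold Stip1 and the immunophilin Fkbp4 had the highest mean normalized counts. Fkbp4, a peptidyl-prolyl isomerase of steroid receptor complexes, had a mean normalized count of 1784. Stip1, which bridges HSP70 and HSP90, followed at 1535. The kinase loader Cdc37 (762), the ATPase activator Ahsa1 (725) and Ptges3 (725), whose product p23 holds HSP90 in its closed state, lay close to one another. Chordc1, a co-chaperone with zinc-binding CHORD domains, was lowest at 314, which is still at or above 65.1% of the genes at 10 or more. The median percentile of the 10 genes was 89.1.

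**Figure D1:**
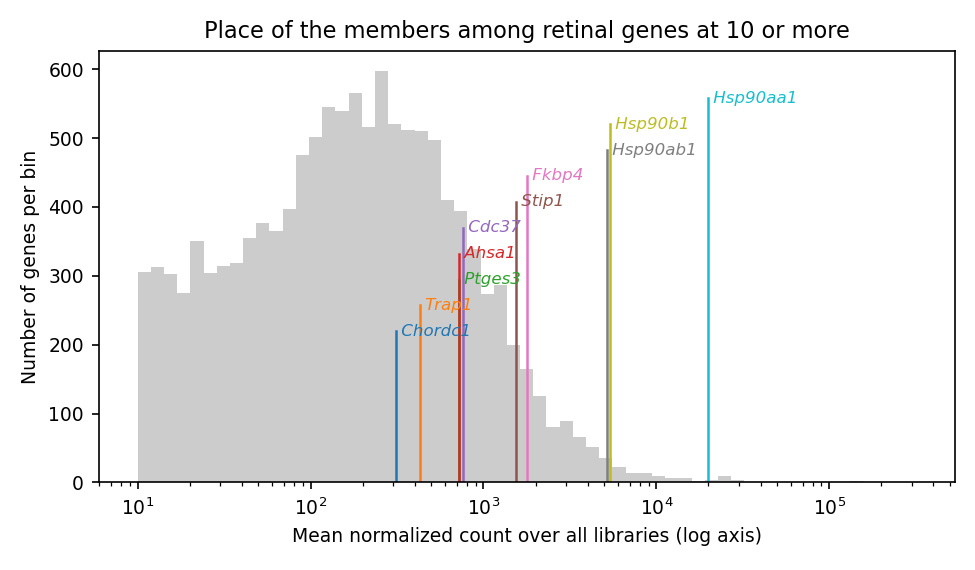
Histogram of the authors' mean normalized count (log axis) over the 12374 genes at 10 or more, with a vertical line for each of the 10 genes, whose height carries no value. The lines run from Chordc1 at 314 to Hsp90aa1 at 19758, and the 3 HSP90 genes outside the mitochondrion stand in the right tail.

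Longer transcripts yield more reads, so the levels of different genes were compared per kilobase. The length was that of the reference transcript with the same RefSeq accession as the one counted. On the scale of mean normalized count per kilobase of transcript, Hsp90aa1 had 6022, Hsp90ab1 2061, Hsp90b1 1905 and Trap1 185. Hsp90aa1 was thus 2.92 times Hsp90ab1, 3.16 times Hsp90b1 and 32.5 times Trap1. Of the HSP90 transcript level summed per kilobase, 59.2% came from Hsp90aa1, 20.3% from Hsp90ab1, 18.7% from Hsp90b1 and 1.82% from Trap1. Both the ratios and the share of Hsp90aa1 depend on how copied sequence is treated. Divided instead by the number of stretches of read length with no copy in another gene, described below, the levels lay further apart. Hsp90aa1 was then 6.14 times Hsp90ab1, 6.71 times Hsp90b1 and 68.7 times Trap1, with 75.4% of the sum. The counts themselves were not restricted to these stretches, so these values hold only if no read from a copied stretch was counted. Hsp90ab1 and Hsp90b1 differ 1.08-fold per kilobase of transcript and change places on the scale of counts, so no order is given between them.

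Per kilobase of transcript, the co-chaperones ran from 805 for Fkbp4 through 728 for Stip1, 527 for Ahsa1, 362 for Ptges3 and 97.0 for Cdc37 to 54.2 for Chordc1. Cytosolic HSP90, as the sum of Hsp90aa1 and Hsp90ab1, was 3.14 times the sum of the 6 co-chaperones. Per kilobase of coding sequence this ratio was 2.09. Neither ratio allows for copied sequence, on whose treatment the level of Hsp90aa1 depends. The lower part of the order turned on which length was used, because the share of coding sequence in the transcript is 14.5% for Cdc37, 17.2% for Chordc1 and 24.2% for Ptges3, against 62.1% or more in the other 7 genes. Per kilobase of coding sequence, Ptges3 stood at 1500 and rank 4, above Fkbp4 at 1296 and Stip1 at 941, and Cdc37 at 668 and rank 8. Hsp90aa1 at 8973, Hsp90ab1 at 2388 and Hsp90b1 at 2234 kept the first 3 ranks on both scales per kilobase. Without the spread between libraries, whether neighbours in this order differ beyond their error cannot be said.

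**Figure D2:**
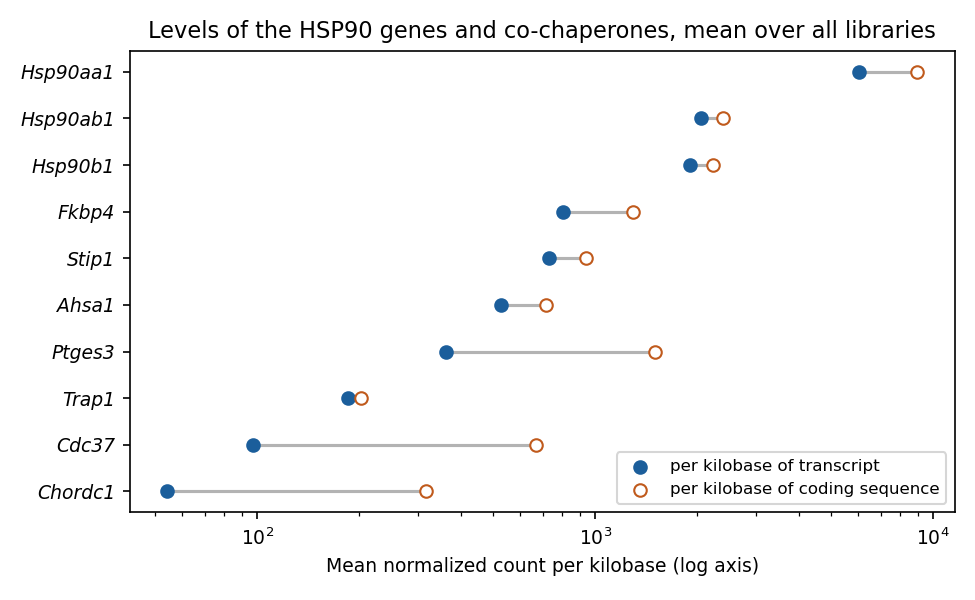
Mean normalized count per kilobase (log axis) of the 10 genes, per kilobase of transcript (filled) and of coding sequence (open), joined by a line for each gene. Hsp90aa1 is highest on both scales, while Cdc37, Chordc1 and Ptges3 have the longest lines.

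A read is counted for a gene only where it can be told from other genes. The cytosolic pair Hsp90aa1 and Hsp90ab1 had the most similar coding sequences, with 76.6% of 2174 aligned bases identical, against 60.4% to 64.1% for the other 5 pairs of HSP90 genes. Their longest run of identical aligned bases was 33, shorter than the reads of 75 bases. The stretches below are the 75 aligned bases with the most identity between them, near the start of the coding sequence, with the bases that differ in capitals.
Hsp90aa1: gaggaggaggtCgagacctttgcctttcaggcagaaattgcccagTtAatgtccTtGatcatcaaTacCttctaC
Hsp90ab1: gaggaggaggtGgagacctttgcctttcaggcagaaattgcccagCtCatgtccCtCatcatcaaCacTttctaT
These are bases 40 to 114 of the Hsp90aa1 coding sequence and 25 to 99 of that of Hsp90ab1, in the reference transcripts of GENCODE M21, and 8 of the 75 bases differ. No window of 75 bases in either transcript was found in the other.

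Copies elsewhere in the genome were a larger source of shared sequence than the paralogs. Each window of 75 bases in a transcript was searched for, with no mismatch and on both strands, in the annotated transcripts of other genes. Of the 3207 windows of Hsp90aa1, 53.1% were found again in a gene elsewhere. These were the processed pseudogenes Gm12346 (45.0% of its windows), Gm5844 (27.5%) and Gm5511 (2.99%), some windows being in more than 1. Ptges3 shared 21.2% of its windows, nearly all with Ptges3-ps. The shares were 11.7% for Ahsa1, with the long noncoding Gm49207, 4.42% for Stip1, with transcripts of Cfap20, and 0.736% for Hsp90ab1. None was shared in this way by Hsp90b1, Trap1, Chordc1, Cdc37 or Fkbp4, although 9.71% of the windows of Hsp90b1 lie in annotated genes that overlap it at the same place.

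The deposited count table keeps reads with several alignments in a row of their own, outside the genes. The level of Hsp90aa1 therefore rests on the 46.9% of its windows with no copy to the extent that reads from copied windows were set aside, which was not tested. Scaled to 1000 windows without a copy, the mean normalized count was 13137 for Hsp90aa1, 2139 for Hsp90ab1 and 478 for Ptges3. Hsp90aa1 was highest of the 10 genes on this scale as well, which could not have come out otherwise. Its count was unchanged and already highest per kilobase of transcript, and it lost the largest share of its windows, 53.1%.

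**Figure D3:**
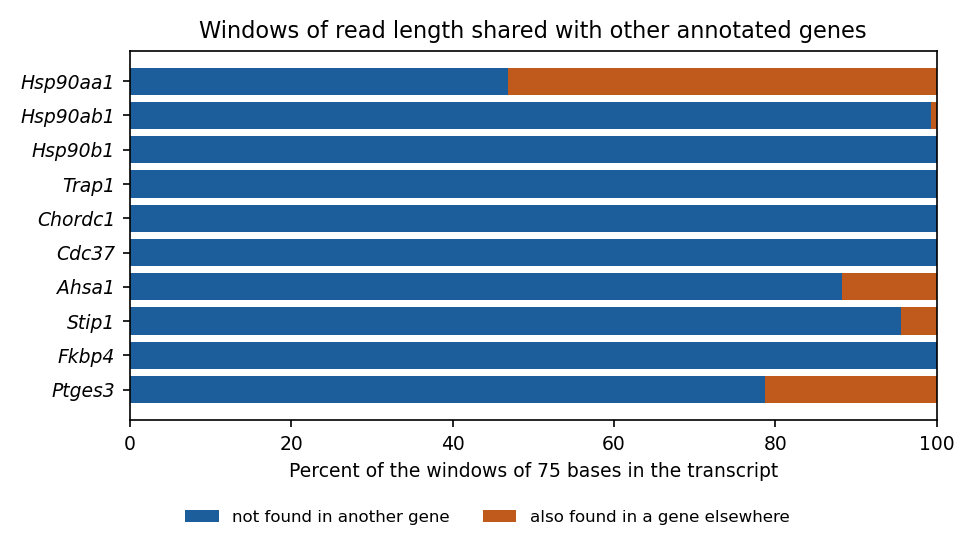
Percent of all windows of 75 bases in each transcript that were found in no gene elsewhere (blue) or also in a gene elsewhere (orange). Hsp90aa1 has 53.1% of its windows in copies, Ptges3 21.2% and Ahsa1 11.7%, and 5 genes have none.

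Chaperone genes are known targets of stress-responsive transcription factors, so the promoters were read from RefSeq (assembly GRCm38.p6), from 250 bases before the start to 50 from it. The table held 8 of the 10 genes, without Hsp90aa1 and Hsp90ab1. Heat shock factors bind inverted repeats of the letters GAA. With 3 units (GAA and its inverse TTC in turn, beginning with either, with any 2 bases between neighbours) a match was found in the promoter of Chordc1 alone among the 8, and in 0.603% of all 32851 promoters of this length. The Chordc1 promoter holds 3 overlapping matches, from 4 bases before the start to 19 bases into the transcript. The stretch at chr9:18292222-18292291, on the plus strand, is shown with these matches in capitals.
Chordc1: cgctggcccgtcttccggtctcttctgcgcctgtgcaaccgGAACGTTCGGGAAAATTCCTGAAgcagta
A further match of 2 units lies downstream, at bases 34 to 41 of the transcript.

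With 2 units at the same spacing, which lie within every match of 3 units, 3 of the 8 promoters had a match, against 15.1% of all promoters. Besides Chordc1 these were Cdc37, at chr9:21150079-21150119, and Fkbp4, at chr6:128438786-128438826, both on the minus strand, shown with the match in capitals.
Cdc37: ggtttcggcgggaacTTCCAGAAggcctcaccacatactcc
Fkbp4: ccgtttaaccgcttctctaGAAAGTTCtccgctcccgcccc
Counted from the start, the match lies at positions -170 to -163 in Cdc37 and -151 to -144 in Fkbp4.

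The ER stress element (CCAAT and CCACG with any 9 bases between them, or the reverse complement), bound in the unfolded protein response, was searched for as well, a motif added after the data were seen. It was found in 0.119% of all promoters and, among the 8, in that of Hsp90b1 alone, which holds it on each strand. The matches lie at positions -212 to -194 and -107 to -89. The stretch at chr10:86705524-86705664, on the minus strand, is shown with both in capitals.
Hsp90b1: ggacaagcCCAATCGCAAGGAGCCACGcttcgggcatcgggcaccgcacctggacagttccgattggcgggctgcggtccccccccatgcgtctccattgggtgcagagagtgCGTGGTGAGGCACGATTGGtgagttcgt
These matches describe the letters of the promoters, and no binding was measured. Trap1, Ahsa1, Stip1 and Ptges3 had no match to any of the motifs in this window. The GC content of the 8 promoters ran from 56.0% for Ahsa1 to 73.7% for Ptges3.

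**Figure D4:**
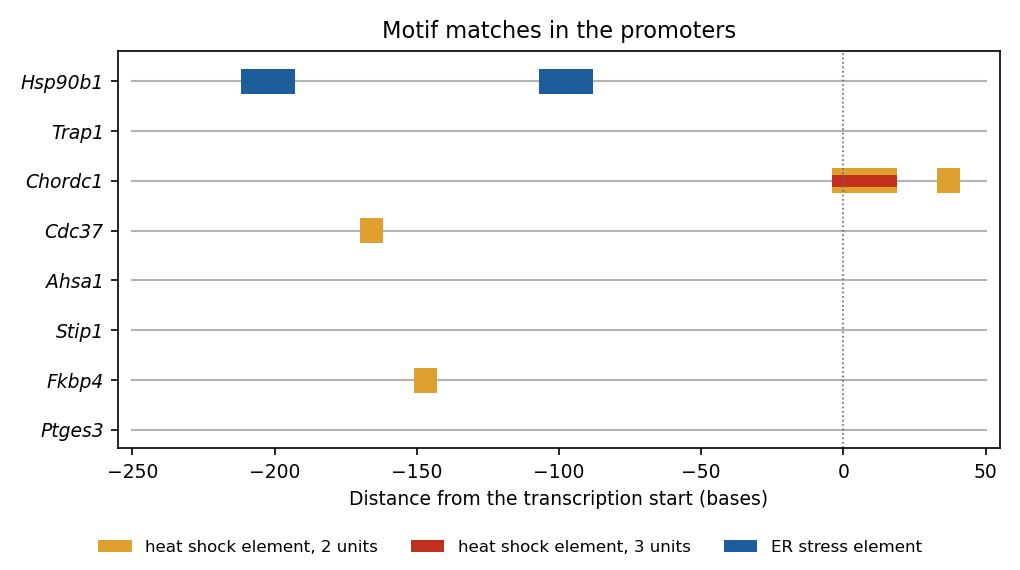
Matches to the heat shock element of 2 units (yellow) and 3 units (red) and to the ER stress element (blue) along the 8 promoters, by distance from the transcription start in bases (dotted line). Chordc1 has the matches of 3 units, at the start itself, and Hsp90b1 both ER stress elements.

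Further co-chaperones and partners of HSP90 were compared from a list of 31 genes, all of them in the table and 28 at 10 or more. Aipl1, needed by photoreceptors for their phosphodiesterase, was highest per kilobase of transcript of the 29 with a length, at 1810 and above each of the 6 co-chaperones. It was below both cytosolic forms of HSP90 on this scale, but per kilobase of coding sequence, at 4234, it was above Hsp90ab1 at 2388. Other high ones were Nudc (667), St13 (587) and Stub1 (356), an E3 ubiquitin ligase. The lowest with a length were Unc45b (0.888), a chaperone of muscle myosin, the p23-like Ptges3l (1.88) and Itgb1bp2 (9.23), known from muscle. Fkbp5, a steroid-induced relative of Fkbp4, stood at 48.3, against 805 for Fkbp4. Hsf1, the main heat shock factor, stood at 182. The median of the 29 genes of this list with a length was 156 per kilobase of transcript, and 8 of the 10 HSP90 genes and co-chaperones lay above 160, the median over all partner genes counted from 1 transcript.

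The HSP70 genes hand clients to HSP90. Hspa8, the constitutive cytosolic HSP70, had 3727 per kilobase of transcript, between Hsp90aa1 and Hsp90ab1. The heat-inducible and near-identical Hspa1a and Hspa1b had 161 and 128, and how reads were divided between these copies is uncertain. Of the ER partners, Calr was highest at 1389 and Sdf2l1 lowest at 46.6. Hsp90b1 at 1905 was above Calr per kilobase of transcript and below it per kilobase of coding sequence, at 2234 against 2426. Of the 5 mitochondrial partners with 1 counted transcript, Hspa9 (619), Hspe1 (501) and Hspd1 (486) were all above Trap1 at 185. Lonp1, the lowest of the 5, was above it too, at 214.

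In the authors' table, levels were often low, though not always, for genes counted from several transcripts. Some partners are such genes, but none of the 10 genes is, since each has 1 counted transcript. The percentiles and shares of the 10 genes are still taken over a table that holds such genes, and how far this moves them was not tested. Among the 74 partner genes, 10 had 2 or more counted transcripts, and 5 of these were listed at 0. The 5 were Fkbp8, Bag1, Akt1, Hspa5, the HSP70 of the ER, and Canx, the ER lectin calnexin. Of the 64 with 1 counted transcript, 0 were listed at 0. The median mean normalized count was 481 with 1 counted transcript and 0.10 with several. Over all genes, the median was 12.9 for the 22086 with 1 and 0.806 for the 3794 with several, and 48.3% and 75.4% were under 10. Housekeeping genes such as Hspa5 and Canx are used by every cell, so their listing at 0 is not read as absence, and the levels of genes with several counted transcripts were not compared.

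**Figure D5:**
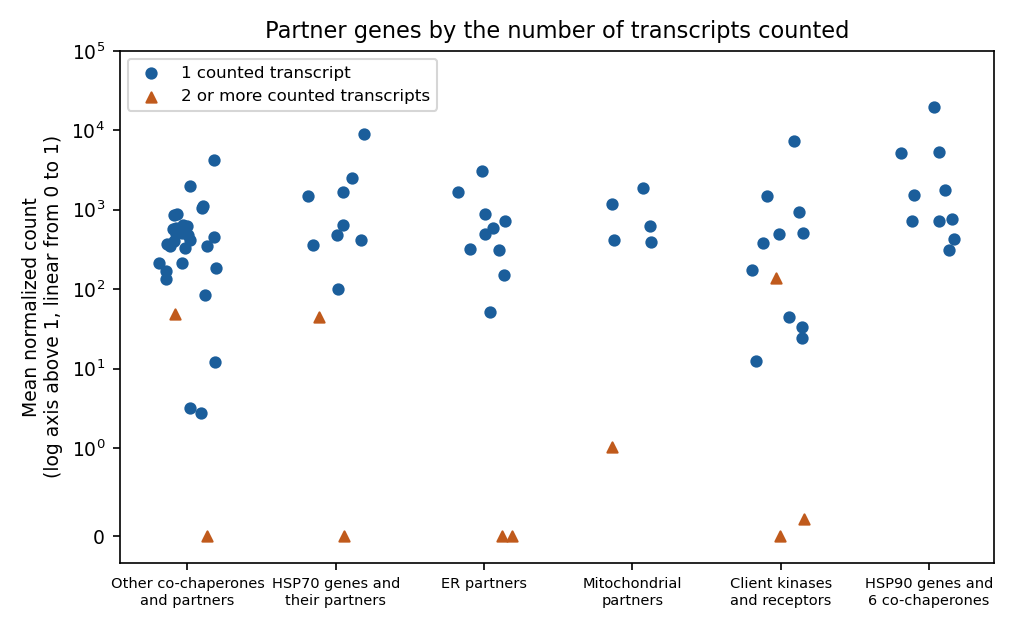
Mean normalized count (log axis above 1, linear from 0 to 1) of 74 partner genes in 5 lists and of the 10 genes described here, as circles for genes with 1 counted transcript and triangles for those with several. Of the 10 triangles, 5 lie at 0, and the 10 genes of the right column lie between 314 and 19758.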

How the data were processed

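Per the study's methods, single-end reads of 75 bases were trimmed with Trimmomatic, mapped with TopHat2 to an NCBI mouse build older than GRCm38 and counted with HTSeq. The signal value used here is the mean that the authors deposited for each gene, over all libraries, of counts divided by size factors of DESeq2 (version 1.22.2 in R 3.5.1). The columns of the same table with log2 fold-changes, standard errors, Wald statistics and p-values are the authors' own comparison and were not used, nor was the second table of genes they selected. The 32 columns of counts in 2 tables have codes that match no sample, and none was used. The edgeR quasi-likelihood test planned for spaceflight against ground control could not be run, so no comparison between the groups was made. Accessions and symbols of the counted transcripts came from the count table.

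Genes, lists and motifs were chosen with earlier results of these data known. Named are all 10 genes, Aipl1 and, of each partner list, genes among the 5 with the highest and the 5 with the lowest level per kilobase, some of which are not reported here. Hsf1, Cdc37l1, Ahsa2 and the genes listed at 0 were named after their values were seen, and the comparison of windows, of counted transcripts and of the ER stress element was added then too. Lengths and windows came from transcripts of GENCODE M21, matched by RefSeq accession without its version, with the longest where several matched. Older symbols were matched through RefSeq synonyms (GRCm38.p6). Coding sequences were aligned globally (match 2, mismatch -1, gap opening -5, extension -0.5). Percentiles use the 12374 genes at a minimum of 10, by mean normalized count not divided by length. The window, percentile and motif steps were tested on simulated data (seed 1). Python 3.11.15 was used with pandas 2.3.3, numpy 2.4.6, scipy 1.17.1, Biopython 1.88 and matplotlib 3.10.9.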

Additional observations from a re-analysis of the deposited data

How the results depend on the processing

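Against the order by mean normalized count, 4 of the 10 genes kept their rank per kilobase of transcript and 2 per kilobase of coding sequence. Per 1000 windows without a copy elsewhere, a scale added after seeing the data, 4 did. Hsp90aa1 was first on all of them, though the scale of windows without a copy could only raise its lead per kilobase of transcript. The median percentile of the 10 genes was 89.1 among genes at 10 or more and 93.1 among all genes above 0. Heat shock elements of 3 units were found in 1 of 8 promoters, against 0.603% of all promoters. Those of 2 units were found in 3 of the 8, against 15.1% of all promoters. The alternatives planned for the test between groups (tool, normalization, filter, threshold and block) were not run, since no test was. No paired analysis was possible because the columns of counts carry no replicate number. Pseudogenes outside the annotation and copies with mismatches were not searched, and the reference is newer than the build of the authors.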

Other observations

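Client genes of HSP90 were read from a list of 14 textbook clients, all in the table, of which 11 had 1 counted transcript. Hif1a, the oxygen-sensing transcription factor, was highest of these 11 at 1568 per kilobase of transcript. It was below Hsp90ab1 and Hsp90b1 on this scale and above both per kilobase of coding sequence, at 2951. The kinase Braf stood at 152, and the glucocorticoid receptor Nr3c1 at 148. The estrogen receptor Esr1 and the progesterone receptor Pgr were much lower, at 5.61 and 4.85.

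Cdc37l1, a relative of the kinase loader Cdc37, stood at 80.2 per kilobase of transcript and 412 per kilobase of coding sequence, against 97.0 and 668 for Cdc37. Ahsa2, a relative of Ahsa1, stood at 61.4 per kilobase of transcript and 186 per kilobase of coding sequence, against 527 and 713 for Ahsa1.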
